A study of Mus musculus with 6 samples.

Results

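The genes described here are 10 genes of the mitochondrial and integrated stress response, taken by their symbols from 24411 genes measured in mouse testis: Atf4, Atf5, Ddit3, Chac1, Trib3, Asns, Fgf21, Gdf15, Lonp1 and Clpp. All 10 were present in the files and all 10 passed the filter on low counts. The study sequenced testis RNA from age-matched C57BL/6 mice, an inbred laboratory strain: 3 animals with the genotype MRP5-/- and MRP9-/- (labelled DKO, for double knockout) and 3 with the genotype Wildtype (labelled WT). MRP5 and MRP9 are membrane transporters of the multidrug resistance-associated family, encoded by Abcc5 and Abcc12, and the title of the series concerns male reproduction and mitochondrial function. The labels give neither the age in weeks nor the design of the alleles.

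When mitochondria, the endoplasmic reticulum or the amino acid supply are disturbed, kinases phosphorylate the translation initiation factor eIF2, which lowers protein synthesis overall but favours translation of the transcription factors ATF4, ATF5 and CHOP (encoded by Ddit3). These factors switch on genes for amino acid supply (Asns), glutathione breakdown (Chac1), feedback on the response (Trib3) and the secreted hormones FGF21 and GDF15. In mitochondrial stress the matrix proteases LONP1 and CLPP, which degrade misfolded matrix proteins, belong to the same protective programme. Because ATF4 is controlled largely through translation of its messenger, its transcript level is a weaker readout of the response than the transcripts of its targets.

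ATF4 binds with C/EBP partners to the C/EBP-ATF response element (CARE), written here as TGATGNAA on either strand. RefSeq promoter windows on build GRCm38.p6, running from 250 bases before to 50 bases after an annotated start, were found for all 10 genes (12 windows). A CARE match was present in windows of 4 of the 10 genes, Asns, Chac1, Fgf21 and Trib3, against 3.97% of 32851 windows of all genes. These 4 windows are shown because they hold the letters that ATF4 is known to bind. Of the 4 genes behind them, Asns alone passed the test between the groups described below. Capitals mark the match.
Asns: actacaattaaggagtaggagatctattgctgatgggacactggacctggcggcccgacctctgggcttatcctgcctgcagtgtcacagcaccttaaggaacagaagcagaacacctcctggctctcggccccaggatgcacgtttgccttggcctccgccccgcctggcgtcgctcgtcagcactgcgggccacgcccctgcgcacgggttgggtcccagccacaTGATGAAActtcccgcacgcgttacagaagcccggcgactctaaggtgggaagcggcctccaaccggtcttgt
Chac1: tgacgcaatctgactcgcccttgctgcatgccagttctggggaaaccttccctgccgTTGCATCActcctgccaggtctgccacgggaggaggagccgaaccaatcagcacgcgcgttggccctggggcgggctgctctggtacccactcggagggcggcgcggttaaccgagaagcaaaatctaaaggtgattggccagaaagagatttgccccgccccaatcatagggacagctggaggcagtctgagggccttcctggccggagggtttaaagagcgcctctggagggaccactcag
Fgf21: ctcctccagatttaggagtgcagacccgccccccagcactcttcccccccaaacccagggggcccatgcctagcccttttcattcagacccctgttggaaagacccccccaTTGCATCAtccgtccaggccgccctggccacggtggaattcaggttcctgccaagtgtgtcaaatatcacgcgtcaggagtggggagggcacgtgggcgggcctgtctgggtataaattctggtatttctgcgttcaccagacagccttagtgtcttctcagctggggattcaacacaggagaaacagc
Trib3: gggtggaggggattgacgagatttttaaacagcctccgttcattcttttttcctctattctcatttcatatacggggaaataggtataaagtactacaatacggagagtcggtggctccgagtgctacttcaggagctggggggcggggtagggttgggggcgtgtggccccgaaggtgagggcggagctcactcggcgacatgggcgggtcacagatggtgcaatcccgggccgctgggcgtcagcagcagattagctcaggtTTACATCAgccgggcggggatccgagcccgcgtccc
The Asns window (chr6:7693160-7693459, minus strand) holds TGATGAAA with its first base 23 bases before the start. The windows of Chac1 (chr2:119350992-119351291, plus strand) and Fgf21 (chr7:45615441-45615740, minus strand) both hold TTGCATCA, the reverse-strand form, with its first base 193 and 139 bases before the start. The Trib3 window (chr2:152344011-152344310, minus strand) holds TTACATCA at base 15 of the transcript. Neither the cyclic AMP response element TGACGTCA, present in 1.79% of all windows, nor the endoplasmic reticulum stress element, present in 0.119%, was found in any of the 12 windows, searched on both strands. The endoplasmic reticulum stress element was searched in its strict form only, and near matches, in which a letter differs, were not searched. The absence of the strict form therefore does not show that a window, that of Ddit3 included, lacks such an element. A match describes letters in a window and does not show binding.

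The libraries labelled DKO held 42673615 to 67131103 expected counts and those labelled WT 26753721 to 31745969, with no overlap (two-sided exact permutation p = 0.1, which is the lowest this design can reach). The mean fragment length was also longer, at 275.5 to 317.4 bases against 230.4 to 257.9 bases (exact permutation p = 0.1). Fragment length separates the same libraries as the label does, so a model holding both can tell them apart only poorly. Abcc12 had 49.3% of the WT level in libraries labelled DKO (edgeR quasi-likelihood test, Benjamini-Hochberg adjusted p = 0.000307), whereas Abcc5 was higher there (log2 fold change 0.56, adjusted p = 0.0225), so the groups are named by their labels throughout. Testis germ cell markers were abundant in every library, with a summed TPM (a transcript level scaled to length and depth) of 107051.6 to 124285.3 for 12 spermatid markers.

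Among the 10 stress genes, 1 was called higher (Asns) and 4 were called lower (Clpp, Atf5, Lonp1 and Gdf15) in libraries labelled DKO at an adjusted p under 0.05, and 5 did not pass the test (Atf4, Ddit3, Chac1, Trib3 and Fgf21). Over all 17110 tested genes 10.8% were called, 5.75% higher and 5.1% lower. The fitted log2 fold change (labelled DKO over labelled WT) was below 0 for 9 of the 10 genes, with a median of -0.25, against a median of -0.0042 over all tested genes. The 5 adjusted p-values lay close to the threshold, between 0.0408 and 0.0495. In 4 of the 6 fits that each left out one library no stress gene was called by edgeR, with 7 to 655 calls over all genes. In those 4 fits 5 to 7 stress genes were at an unadjusted p under 0.05. So were 3571 to 4783 of all the genes tested there, which numbered 17097 to 17431. The adjusted p of Asns, for example, was 0.172 without DKO replicate 1, 0.108 without DKO replicate 2, 0.139 without WT replicate 2 and 0.144 without WT replicate 3. In whole testis RNA, fewer cells of a type and less RNA per cell cannot be told apart.

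**Figure D1:**
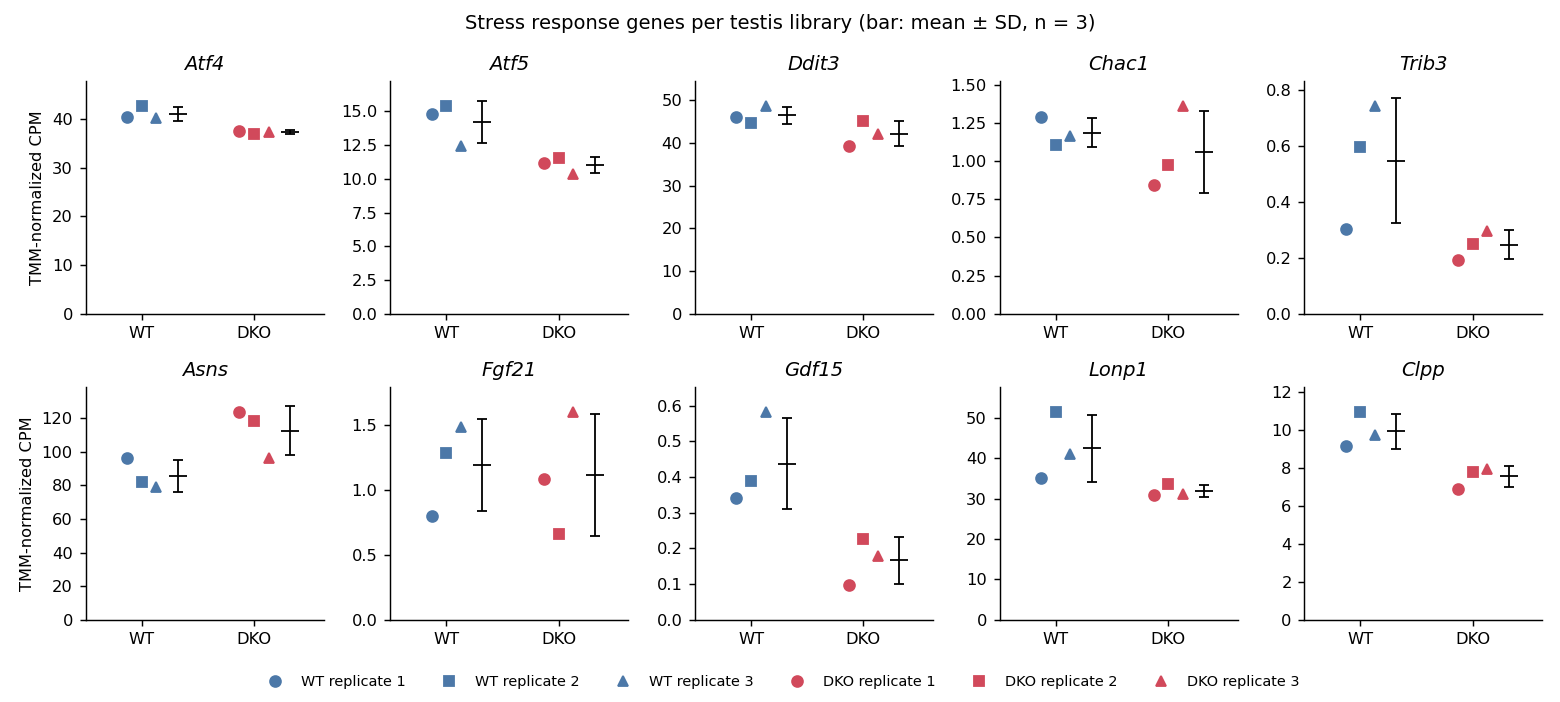
TMM-normalized CPM (counts scaled to library size, linear axes from 0) of each of the 10 genes in the 3 libraries labelled WT and the 3 labelled DKO; symbols are replicates and the bar beside them is the mean ± SD. Asns is the gene with the higher mean in libraries labelled DKO, at 113 against 85.8 CPM. Gdf15, Lonp1, Clpp, Atf5, Trib3 and Atf4 have ranges that do not overlap, lower in libraries labelled DKO. Of all tested genes, 17.5% were lower without overlap and 35.9% had no overlap in either direction.

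The transcription factors came first in the pathway. Atf4 was measured at 37.6, 36.9 and 37.4 CPM in libraries labelled DKO and at 40.4, 42.7 and 40.2 CPM in those labelled WT. All 3 libraries labelled DKO thus lay below all 3 labelled WT, as did 17.5% of all tested genes (35.9% had no overlap in either direction), but the gap was small. The log2 fold change was -0.14 (SE 0.068; n = 3 each; edgeR adjusted p = 0.184), and Atf4 did not pass the threshold in any other setting run.

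Atf5 encodes a related basic leucine zipper factor implicated in the mitochondrial unfolded protein response. It had 11.2, 11.6 and 10.4 CPM in libraries labelled DKO and 14.8, 15.4 and 12.4 CPM in those labelled WT. The groups did not overlap, and WT replicate 3 was the WT library nearest to the DKO range. Atf5 fell to 77.7% of the WT mean (log2 fold change -0.37, SE 0.103; n = 3 each; edgeR adjusted p = 0.0460). The call was lost in each of the 6 fits without one library (adjusted p 0.0710 to 0.154) and, narrowly, with the effective-length offset, which corrects each gene for the fragment lengths of each library (adjusted p = 0.0512). Exons of Atf5 overlap exons of Nup62 and Il4i1 on the opposite strand in GENCODE M21, and strand handling is not given in the sources used here.

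Ddit3, encoding CHOP, the factor that drives the death-promoting arm of the response, was the most abundant of the 10 genes. Its TPM was 99.5, 107 and 105 in libraries labelled DKO and 108, 111 and 117 in those labelled WT. On the CPM scale the groups overlapped, because DKO replicate 2 (45.1 CPM) exceeded WT replicate 2 (44.7 CPM). The log2 fold change was -0.14 (SE 0.076; n = 3 each; edgeR adjusted p = 0.234) and -0.06 with the effective-length offset (adjusted p = 0.608). Its transcript of about 871 bases is the shortest of the 10. Ddit3 exons overlap Mars, which encodes methionyl-tRNA synthetase, on the opposite strand.

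Asns encodes asparagine synthetase, the enzyme that makes asparagine from aspartate and glutamine. It was measured at 124, 118 and 96.2 CPM in libraries labelled DKO and at 96.6, 82.1 and 78.8 CPM in those labelled WT. Replicates 1 and 2 labelled DKO stood above every WT library, whereas DKO replicate 3 lay level with WT replicate 1. Asns rose 1.31-fold (log2 fold change 0.39, SE 0.106; n = 3 each; edgeR adjusted p = 0.0408) and was alone among the 10 genes in being called higher. In TPM, which takes the effective length into account, the lowest library labelled DKO (86.7) was above the highest labelled WT (83.3), and with the effective-length offset the log2 fold change was 0.40 (adjusted p = 0.0430). The call held in 2 of the 6 fits without one library, those without DKO replicate 3 (adjusted p = 0.00849) and without WT replicate 1 (0.0298). With fragment length as a covariate the log2 fold change was 0.01 (adjusted p = 0.999).

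The other genes with a CARE match did not pass the test. Chac1, a gamma-glutamyl cyclotransferase that degrades glutathione, had 0.841, 0.977 and 1.36 CPM in libraries labelled DKO and 1.29, 1.10 and 1.16 CPM in those labelled WT. These ranges overlap, with DKO replicate 3 the highest of all 6 (log2 fold change -0.13, SE 0.232; edgeR adjusted p = 0.735; 35 to 92 counts per library labelled DKO).

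Trib3, a pseudokinase that binds AKT and feeds back on ATF4 and CHOP, had the lowest TPM of the 10 genes and was counted few times, at 8, 11 and 20 counts in libraries labelled DKO and 8, 20 and 23 in those labelled WT. Scaled to depth this was 0.192, 0.250 and 0.296 CPM against 0.304, 0.597 and 0.743 CPM. The ranges of CPM did not overlap, although DKO replicate 3 and WT replicate 1 were nearly equal, and in TPM those libraries overlapped (0.25 and 0.24). The log2 fold change was -1.14 (SE 0.369; n = 3 each; edgeR adjusted p = 0.0645), past the threshold in the fit without WT replicate 1 alone (adjusted p = 0.0321). Counts pooled per group gave a ratio of 0.453, with an interval of 0.291 to 0.701 at 95% that covers counting error only.

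The same CARE letters were found in promoter windows of 418 tested genes. Of these, 28 were called higher and 16 lower (10.5%), with a median log2 fold change of 0.04, against 11% called and a median of -0.0021 over the 12876 tested genes with a window.

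Both secreted hormones of the response were scarce. Fgf21, a metabolic hormone best known from the liver, had 1.08, 0.659 and 1.60 CPM in libraries labelled DKO and 0.797, 1.28 and 1.49 CPM in those labelled WT. The lowest and the highest of the 6 values were both from libraries labelled DKO (log2 fold change -0.07, SE 0.323; n = 3 each; edgeR adjusted p = 0.897), and the sign changed in the fits without DKO replicate 2 and without WT replicate 3.

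Gdf15, a stress-induced hormone that signals through a receptor in the hindbrain, was counted 4, 10 and 12 times in libraries labelled DKO and 9, 13 and 18 times in those labelled WT, although the former were sequenced more deeply. This corresponds to 0.0961, 0.227 and 0.178 CPM against 0.341, 0.388 and 0.582 CPM, without overlap. Gdf15 fell to 38.2% of the WT mean, a log2 fold change of -1.36 (SE 0.396; n = 3 each; edgeR adjusted p = 0.0495), and the call held in 1 of the 6 fits without one library, that without WT replicate 1 (adjusted p = 0.0481). The ratio of pooled counts was 0.385, with an interval of 0.226 to 0.647 at 95% for counting error only. With no low-count filter the adjusted p was 0.0569, with the effective-length offset 0.0543, and with fragment length as a covariate the log2 fold change was -0.75 (adjusted p = 0.999).

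Among the receptors of these hormones none of 6 tested genes was called by edgeR, and none by DESeq2. At an unadjusted p under 0.05 in edgeR there were 2, against 5428 of all 17110 tested genes. Gfral, the GDF15 receptor, was listed at 0 in all libraries. Fgfr1 and Fgfr3, the most abundant of the receptors in TPM, had log2 fold changes of -0.24 (adjusted p = 0.123) and -0.21 (adjusted p = 0.247).

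**Figure D2:**
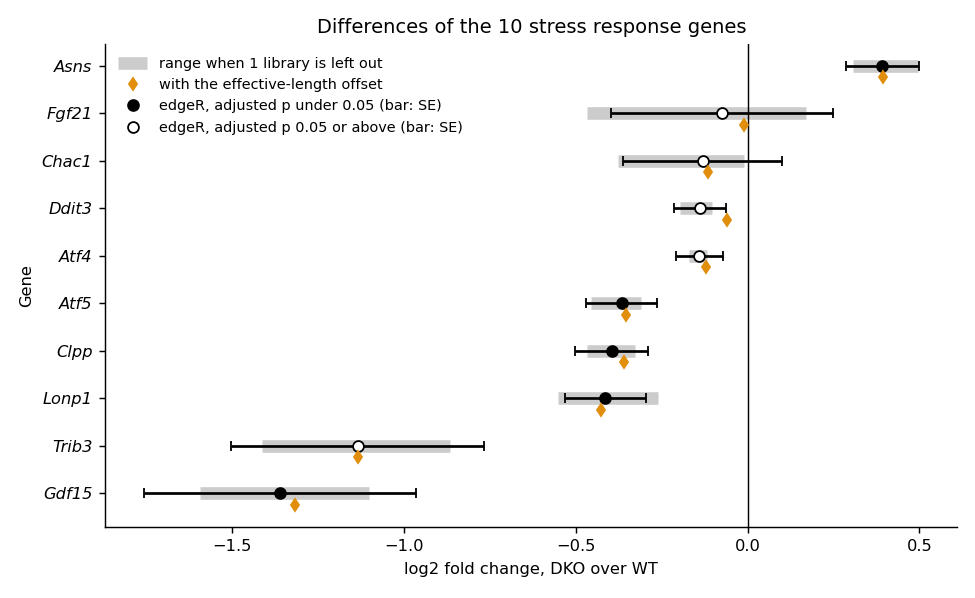
Log2 fold change (labelled DKO over labelled WT, horizontal axis) of each of the 10 genes with its standard error; filled points passed an adjusted p of 0.05, orange diamonds are values with the effective-length offset and grey bands span the fits that left out one library. Asns sits at 0.39 and the other 9 genes lie below 0, down to -1.36 for Gdf15; of the grey bands, that of Fgf21 crosses 0.

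The matrix proteases were both lower. Lonp1 encodes the ATP-dependent protease of the mitochondrial matrix, which also acts on mitochondrial DNA maintenance. It was measured at 31.0, 33.6 and 31.3 CPM in libraries labelled DKO and at 35.1, 51.5 and 41.0 CPM in those labelled WT. The libraries labelled DKO were close to one another, whereas those labelled WT were spread, with WT replicate 2 the highest. Lonp1 fell to 75.1% of the WT mean (log2 fold change -0.41, SE 0.118; n = 3 each; edgeR adjusted p = 0.0473). Without WT replicate 2 the log2 fold change was -0.26 (adjusted p = 0.162), and the call held in 1 of the 6 such fits, that without WT replicate 1 (adjusted p = 0.0237). With fragment length as a covariate it was -0.09 (adjusted p = 0.999).

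Clpp encodes the proteolytic chamber of the ClpXP protease. It had 6.92, 7.82 and 7.95 CPM in libraries labelled DKO and 9.14, 11.0 and 9.76 CPM in those labelled WT. Every library labelled DKO was below every library labelled WT. Clpp fell to 76.0% of the WT mean (log2 fold change -0.40, SE 0.107; n = 3 each; edgeR adjusted p = 0.0408). The value was -0.36 with the effective-length offset (adjusted p = 0.0502), and the call held in 2 of the 6 fits without one library, those without DKO replicate 3 (adjusted p = 0.0330) and without WT replicate 1 (0.0327). With fragment length as a covariate the value was -0.09 (adjusted p = 0.999).

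Mitochondrial chaperones and other mitochondrial proteases were examined beside them. Of 27 tested genes, 2 rose (Yme1l1 and Clpx), 1 fell (Phb) and 24 did not pass the test, a share of 11.1% called that is close to the 10.8% over all tested genes, with a median log2 fold change of -0.02. Clpx, the ATPase that unfolds substrates for CLPP, rose from 170 ± 17.1 to 212 ± 15.5 CPM (SD, n = 3; log2 fold change 0.32; edgeR adjusted p = 0.0437). Yme1l1, an inner membrane protease, rose by 0.54 on the log2 scale (SE 0.134; adjusted p = 0.0358), and Phb, a prohibitin that scaffolds inner membrane proteases, fell by 0.38 (SE 0.082; adjusted p = 0.0277).

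In the reported fit the subunits of ClpXP thus differed in opposite directions, both with an adjusted p close to the threshold. Their ratio within each library, chosen after these values were seen, is given as a description with no test. In TPM, Clpp over Clpx was 0.0870, 0.110 and 0.109 in libraries labelled DKO and 0.135, 0.194 and 0.159 in those labelled WT. That these ranges do not overlap follows from the ranges of both genes, each of which is separate between the groups in TPM.

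**Figure D3:**
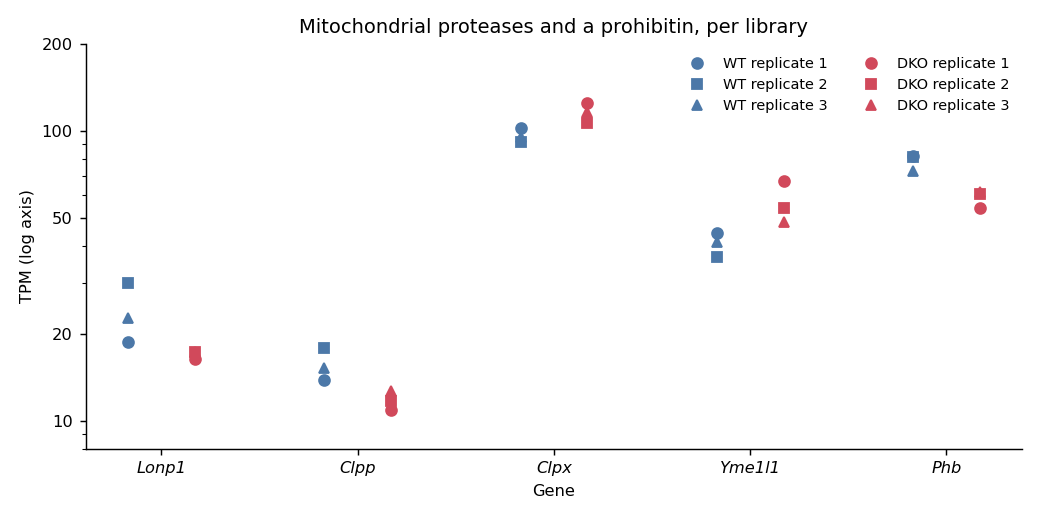
TPM on a log axis of Lonp1, Clpp and the 3 called genes among mitochondrial chaperones and other proteases, per library, labelled WT (blue) and labelled DKO (red), with symbols for replicates. Lonp1, Clpp and Phb lie lower and Clpx and Yme1l1 higher in libraries labelled DKO, in each case without overlap between the groups. All are called genes, for which separate ranges are likely. In CPM, 9 of the 27 listed chaperones and other proteases were higher and 3 lower without overlap. Of all tested genes, 35.9% had no overlap in either direction.

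The levels per length gave the order Ddit3, Asns, Atf4, Lonp1, Clpp, Atf5, Fgf21, Chac1, Gdf15 and Trib3, with mean TPM over the 6 libraries of 108, 87.3, 40.3, 20.3, 13.7, 12.2, 2.50, 1.27, 0.542 and 0.332. Gaps without overlap of the TPM ranges separated Asns from Atf4, Atf4 from Lonp1, and Atf5 from Fgf21. All other neighbours overlapped in range. Ddit3 exceeded Asns in 5 of 6 libraries, and DKO replicate 1 had more Asns (107.49 TPM) than Ddit3 (99.49 TPM).

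Upstream of the factors, 19 genes of the eIF2 machinery were tested: the eIF2 kinases, eIF2 and eIF2B subunits, phosphatase regulators and the OMA1-DELE1 relay from mitochondria. Of these, 3 rose, none fell and 16 did not pass the test, with a median log2 fold change of 0.02. The share called was 15.8%, against 10.8% of all tested genes. Eif2s1, the eIF2 alpha subunit that the kinases phosphorylate, rose from 133 ± 7.88 to 167 ± 16.5 CPM (SD, n = 3; log2 fold change 0.33; edgeR adjusted p = 0.0381). Ppp1r15b, the constitutive regulator of eIF2 dephosphorylation, rose by 0.31 (adjusted p = 0.0358), and Eif2s3y, the Y-linked gamma subunit, by 0.30 (adjusted p = 0.0484). Of the 6 fits without one library, the call held in 1 for Eif2s1 and in 2 each for Ppp1r15b and Eif2s3y.

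Of 28 other tested genes known as ATF4 or CHOP targets, none rose, 3 fell and 25 did not pass the test, and the median log2 fold change was -0.21. The share called, 10.7%, is close to the 10.8% over all tested genes. The 3 called genes were amino acid transporters. Slc7a5, the light chain of the large neutral amino acid transporter, fell from 133 ± 8.61 to 99.4 ± 5.95 CPM (SD, n = 3; log2 fold change -0.42; edgeR adjusted p = 0.0237). Slc3a2, its heavy chain partner, fell by 0.37 on the log2 scale (adjusted p = 0.0358), and Slc6a9, a glycine transporter, by 0.39 (adjusted p = 0.0452). Of the 6 fits without one library, the call held in 3 for Slc7a5, 2 for Slc3a2 and 1 for Slc6a9. Atf3 was below the count filter.

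No gene was called among 20 cytosolic tRNA synthetases (median log2 fold change -0.0042) or among 13 genes of serine synthesis and folate one-carbon metabolism (median -0.06) with the edgeR test. At an unadjusted p under 0.05 there were 4 and 3 genes, against 5428 of all 17110 tested genes. DESeq2 called 2 and 1, against 13.8% of 21125 genes. Vars and Kars, the most abundant synthetases in TPM, had log2 fold changes of 0.10 (adjusted p = 0.425) and -0.05 (adjusted p = 0.608). Shmt1 and Mthfd2, the most abundant of the one-carbon genes, had values of 0.07 (adjusted p = 0.539) and -0.06 (adjusted p = 0.572).

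**Figure D4:**
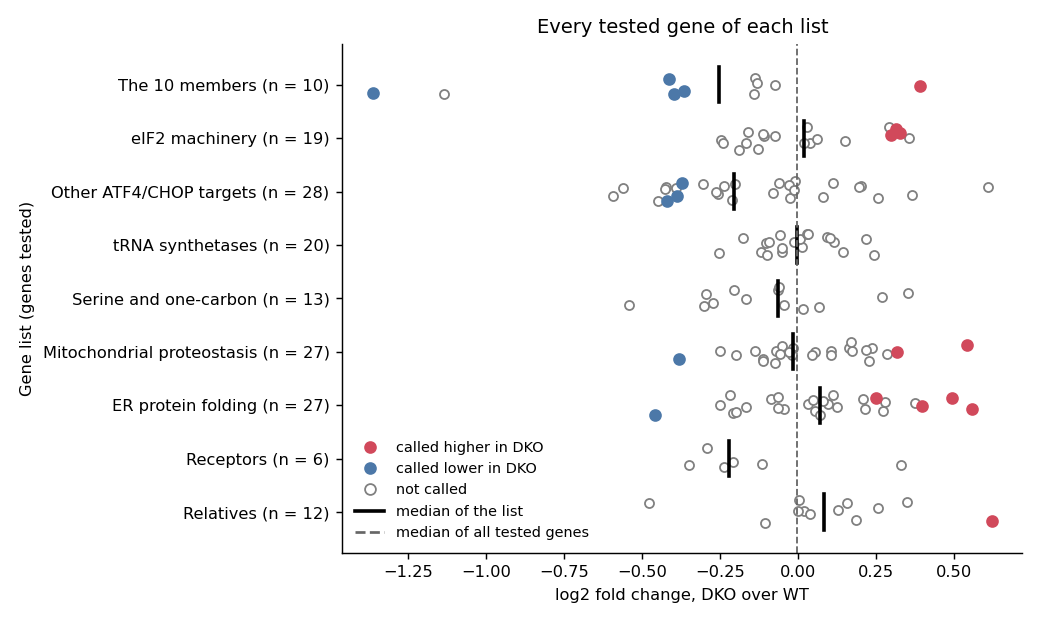
Log2 fold change (labelled DKO over labelled WT, horizontal axis) of every tested gene in each list, with called genes filled, the median of each list as a black bar and the median of all tested genes dashed. The 10 stress genes have a median of -0.25, the other ATF4 and CHOP targets -0.21 and the 6 tested receptor genes -0.22. The tRNA synthetases centre on -0.0042, and the medians of the remaining lists lie between -0.06 and 0.08.

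The protein folding genes of the endoplasmic reticulum share CHOP with this response. Of 27 tested, 4 rose, 1 fell and 22 did not pass the test, with a median log2 fold change of 0.07. The share called was 18.5%, against 10.8% of all tested genes. Derl2, which helps export misfolded proteins, had the smallest p and rose by 0.56 on the log2 scale (SE 0.092, edgeR adjusted p of 0.0225). Dnajb9, Pdia3 and Dnajb11, which aid folding in the lumen, rose by 0.49, 0.40 and 0.25. Sdf2l1, a partner of the lumenal chaperone BiP, fell by 0.46 (adjusted p = 0.0271).

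Of 12 close relatives of the stress genes, 1 was called, higher (8.33%, against 10.8% of all tested genes). Chac2, the paralog of Chac1 with slower glutathione-degrading activity, rose from 3.02 ± 0.250 to 4.66 ± 0.519 CPM (SD, n = 3; log2 fold change 0.62, SE 0.140; edgeR adjusted p = 0.0301). Crem and Atf1, the most abundant relatives in TPM, had log2 fold changes of 0.16 (adjusted p = 0.179) and 0.0019 (adjusted p = 0.991).

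Genes with the most similar log2 CPM over the 6 libraries are given as a description. For Atf4 these were 1110004F10Rik, Trmt12 and Cxcl14, and for Asns 1700006E09Rik, Rora and Cyp19a1. They were Mfsd7a, Igsf9b and Zxdb for Atf5, Pced1b, Ripk4 and Mrps21 for Clpp, Gipc3, Eml3 and Mgp for Lonp1, and Lcat, Smyd2 and Rhog for Gdf15. Pearson's r lay between 0.988 and 0.999 in these 18 pairs, over the same 6 libraries and the difference between the groups they share.

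Markers of some cell types moved along with these genes. The summed TPM of 12 Sertoli cell markers was 1441.3 to 1788.1 in libraries labelled DKO and 1869.6 to 2378.2 in those labelled WT, and that of 8 myoid and endothelial markers was 69.0 to 81.2 against 81.9 to 117.3, both lower without overlap. The sum of 12 spermatocyte markers was higher without overlap, at 5290.3 to 5626.6 against 5105.3 to 5286.7. The gaps of the spermatocyte and the myoid and endothelial sums were narrow. The sums of spermatogonia, spermatid and macrophage markers overlapped between the groups. Of all tested genes, taken singly in CPM, 35.9% had no overlap in either direction. Of 10 Leydig cell markers 9 had a log2 fold change below 0, and the median of the 10, -0.48, was the lowest of the lists. Among these markers 3 were called lower (Star, Hsd3b6 and Insl3), against 5.1% of all tested genes. None of the Leydig markers was called higher. The summed TPM of the 10 Leydig markers was 962.7 to 1635.5 against 1625.0 to 3278.0, overlapping through DKO replicate 2 and WT replicate 1. WT replicate 2, the library with the highest Lonp1, Clpp, Atf5 and Atf4, had the highest Leydig, Sertoli, macrophage and myoid sums. The other stress genes peaked elsewhere in CPM: Ddit3, Trib3 and Gdf15 in WT replicate 3, Chac1 and Fgf21 in DKO replicate 3 and Asns in DKO replicate 1. No marker of any list was at 0 in every library. The part of cell composition in the differences of the stress genes was not tested, nor was that of fragment length beyond the offset. The covariate fit cannot settle it, because fragment length does not overlap between the groups.

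**Figure D5:**
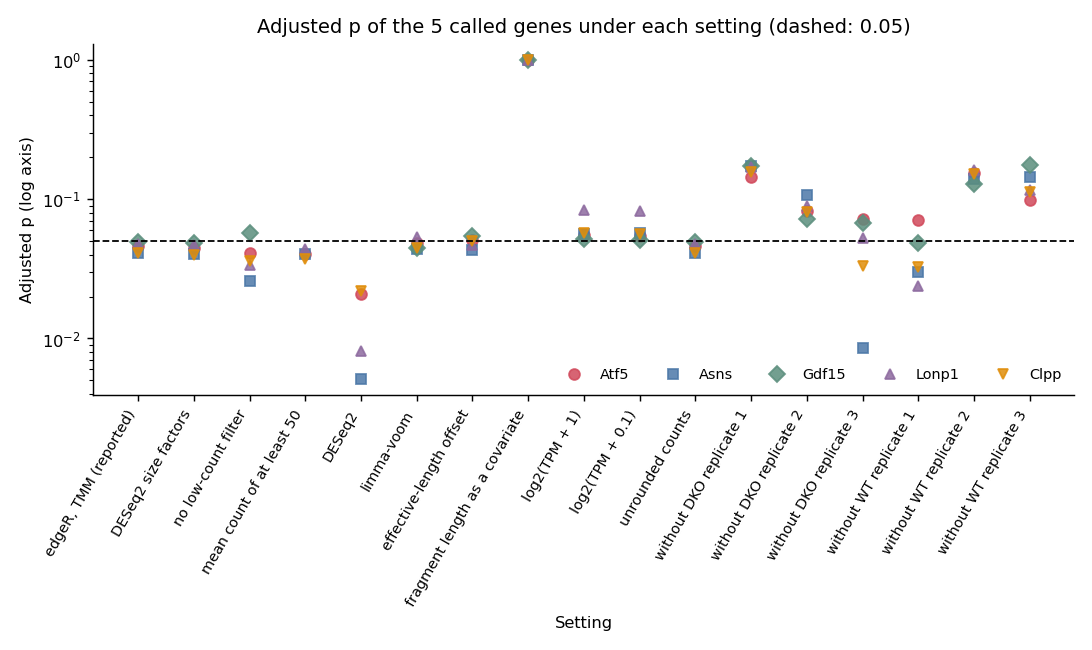
Adjusted p (log axis) of the 5 called stress genes under the reported fit, the other settings and each fit without one library, with 0.05 dashed. In the reported fit all 5 lie between 0.0408 and 0.0495, just under the line, and all are above it without DKO replicate 1 or 2 or WT replicate 2 or 3; Gdf15 has no adjusted p from DESeq2 and no value at a mean count of at least 50.

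With limma on log2(TPM + 1), 0 of 9 stress genes tested were called, against 4 of the 6 to which DESeq2 gave an adjusted p. In that limma fit 5 of the 9 were at an unadjusted p under 0.05, as were 4752 of all 15717 genes. The split over all genes differed too: 38.6% of the 873 calls on log2(TPM + 1) were higher, compared with 53.0% of the 1856 reported here. That setting changed the test, the normalization and the filter as well as the scale, and these were not separated. When fragment length entered the edgeR model as a covariate, 1 call was left over all genes and no stress gene had an unadjusted p under 0.05. Of all 17110 genes in that fit, 543 did. Fragment length and the label coincide too closely in these libraries for that fit to separate them.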

How the data were processed

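Testis RNA of 6 mice was sequenced, 3 labelled DKO and 3 labelled WT, grouped by the genotype label. Replicate numbers follow the order of deposition and pair nothing. Per the submitters' processing notes, the tools were STAR 2.7.0f, RSEM 1.2.31 and DESeq2 1.12.3 and the build mm10. Per the file headers, each library has its own RSEM table with the expected counts, TPM, FPKM, length and effective length deposited by the authors. Strand handling is not given in the sources used here. The deposited FPKM values were not used.

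Expected counts were rounded, filtered with filterByExpr, scaled by TMM and tested with the quasi-likelihood test of edgeR 4.0.16, modelling genotype alone. Benjamini-Hochberg adjustment covered all 17110 tested genes, and calls are at 0.05. The test was run on simulated counts with known changes. These were drawn without a fragment length or cell composition difference between the groups, so they do not bear on such differences. The standard error is the absolute log2 fold change over the square root of F. CPM uses the TMM-scaled library sizes. Mean fragment length was read from the gap between deposited length and effective length in genes over 3000 bases. Positions are from RefSeq (GRCm38.p6). Alternatives used DESeq2 1.42.0, limma 3.58.1 on voom values or on log2(TPM + 1) and log2(TPM + 0.1) at a mean TPM of at least 0.5, other filters, offsets and covariates, and each library left out.

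The members and lists were chosen with earlier results of these data known. Named genes are the 10 members, both targeted genes, up to 5 called genes with the smallest p of each list (or, where fewer than 2 are called, also the 2 with the highest TPM), and the 3 most similar genes of Atf4 and of each called member. Of the list symbols, 3 were matched through RefSeq synonyms.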

Additional observations from a re-analysis of the deposited data

How the results depend on the processing

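The sign of Asns, Atf4, Atf5, Ddit3, Gdf15, Lonp1, Clpp and Trib3 was kept in every setting that gave a value, but with fragment length as a covariate several values came near 0: 0.01 for Asns, -0.09 for Lonp1 and for Clpp, -0.06 for Ddit3 and -0.27 for Trib3. Gdf15 was at -0.75, Atf5 at -0.39 and Atf4 at -0.11 there, while Chac1 reversed to 0.32 and Fgf21 to 0.55. Leaving out a library gave Fgf21 values from -0.47 to 0.17 and Chac1 values from -0.38 to -0.01. Called stress genes numbered 5 in the reported fit, 2 with the effective-length offset, 0 on log2(TPM + 1), log2(TPM + 0.1) and with the covariate, 0 at an adjusted p under 0.01, and 0 to 5 without a library. Over all genes DESeq2 called 2921 (1675 higher). On log2(TPM + 1) 873 were called (337 higher, 536 lower), on log2(TPM + 0.1) 863 (331 and 532), with the covariate 1 (0 and 1) and at an adjusted p under 0.01 7 (0 and 7). Without a library the range was 7 to 3029, 0 to 1903 higher and 7 to 1126 lower.

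Calls among the ATF4 and CHOP targets were 5 with DESeq2, 1 on both TPM scales and 0 to 6 without a library. Those of the eIF2 machinery were 5 with DESeq2 and with no low-count filter, 0 on both TPM scales and 0 to 5 without a library. Endoplasmic reticulum genes had 10 with DESeq2 and 0 to 9 without a library, and mitochondrial proteostasis genes 6 with DESeq2, 1 on both TPM scales and 0 to 4 without a library. One-carbon genes had 1 with DESeq2, with no filter and at a mean count of at least 50, and 0 to 1 without a library. The tRNA synthetases had 2 with DESeq2, 1 at a mean count of at least 50 and 0 to 3 without a library, and the relatives 0 to 3. With the covariate, and at an adjusted p under 0.01, each of these lists had 0.

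Chac1, Trib3, Fgf21 and Gdf15 gave no value at a mean count of at least 50, Trib3 none on the TPM scales, and DESeq2 gave these 4 genes no adjusted p. Depth limits Gdf15 and Trib3, with 4 to 23 counts per library. No paired analysis was possible because the labels give no shared replicate numbers.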
